A study of Mus musculus with 2 samples.

Results

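Matrix metalloproteinases (MMPs) and their tissue inhibitors (TIMPs) were compared between primary mouse chondrocytes and primary mouse dermal fibroblasts. The 10 genes *Mmp2*, *Mmp3*, *Mmp9*, *Mmp11*, *Mmp13*, *Mmp14*, *Timp1*, *Timp2*, *Timp3* and *Timp4* were taken by symbol from the 24421 rows of the count table, and each symbol matched 1 row. Chondrocytes came from newborn rib cartilage, were freed with collagenase and were used within 2 passages. Dermal fibroblasts came from the dorsal skin of newborn mice and were also freed with collagenase. The sources name neither the strain, the number of animals nor any treatment or genetic change, and each cell type was represented by 1 RNA-Seq library. A difference between the libraries therefore has no replicate check and cannot be told apart from a difference between animals or cultures.

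MMPs are zinc-dependent endopeptidases that are made as inactive proenzymes and cut collagens, proteoglycans and other components of the extracellular matrix. TIMPs bind the active site of MMPs and block it. In the growth plate, MMP-13 is known as the collagenase of hypertrophic chondrocytes, and MMP-9 and MMP-14 take part in the removal of cartilage as bone replaces it. In skin, fibroblasts make several MMPs during the turnover of dermal collagen.

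The libraries held 18788599 and 17563724 counts, in the order chondrocytes and dermal fibroblasts, which is used for all pairs of values below. The 10 most abundant genes took 18.6% and 9.09% of them. Levels are given as CPM, which is counts per 1000000 counts of the library size after TMM scaling, or as CPM per kilobase of annotated exon where genes are compared with each other. Folds are ratios of CPM, with counts under 3 set to 3, and the intervals are 95% Clopper-Pearson intervals that cover counting error only. All 6 chondrocyte markers (*Col2a1*, *Acan*, *Col9a1*, *Comp*, *Matn1*, *Sox9*) were over 2-fold higher in chondrocytes, and 5 of 6 fibroblast markers were over 2-fold higher in dermal fibroblasts, *Lum* being the exception (178 and 156 CPM). The 6 skeletal muscle markers summed to 27379 and 22232 counts, so each library also held muscle RNA, whose part in the member levels was not tested. The 5 housekeeping genes lay within 2-fold but were not level. Their folds were 0.853 (*Ppia*), 0.919 (*Actb*), 1.48 (*Gapdh*), 1.48 (*Tbp*) and 1.86 (*Hprt*). Beside the marker counts, 10.7% of all genes with a count above 0 were over 2-fold higher in chondrocytes and 13.9% in dermal fibroblasts. As both are bulk libraries, fewer cells that express a gene and less RNA of that gene in each cell cannot be told apart.

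Of the 6 MMP genes, 5 were lower in chondrocytes than in dermal fibroblasts, whereas *Mmp13* was higher, and no TIMP gene was over 2-fold lower. Over the 10 genes, 3 were over 2-fold higher in chondrocytes (*Mmp13*, *Timp3*, *Timp4*) and 5 were over 2-fold higher in dermal fibroblasts (*Mmp2*, *Mmp3*, *Mmp9*, *Mmp11*, *Mmp14*). The same thresholds were passed by 10.7% and 13.9% of the 17718 genes with a count above 0. All members except *Timp4* had at least 100 counts in 1 library. Among the 11162 genes at that depth, 8.79% were over 2-fold higher in chondrocytes and 13.3% in dermal fibroblasts, against 2 and 5 of the 9 members. For these 2 and 5 genes the whole counting interval lay beyond 2-fold, as it did for 6.78% and 10.7% of the 11162 genes. The median log2 fold of the 6 MMP genes was -2.42 and that of the 4 TIMP genes was 1.46, beside 0.04 for all genes with a count above 0 and 0.01 for those with at least 100 counts. The TIMP median includes *Timp4*, which had 14 and 1 counts, and depends on the floor set for it. Of the 4 TIMP genes, 2 lay within 2-fold.

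**Figure D1:**
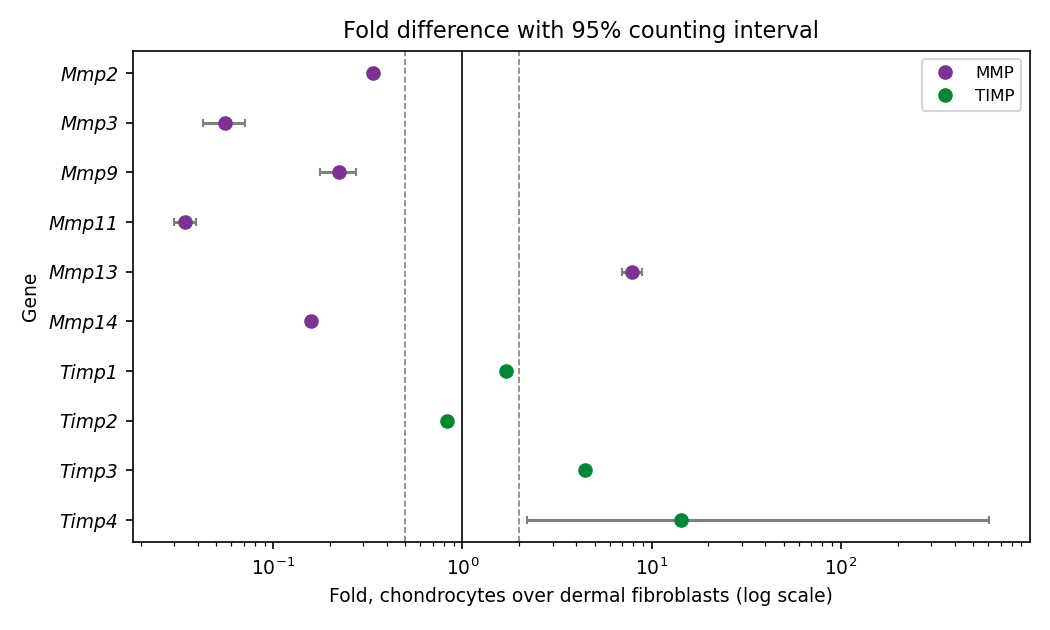
Fold of each gene in chondrocytes over dermal fibroblasts on a log axis, without a floor, for MMP (purple) and TIMP (green) genes, with 95% counting intervals and dashed lines at 0.5 and 2. Of the MMP genes, *Mmp13* alone lies right of 1, and the wide interval of *Timp4* (2.19 to 608.0) reflects 14 counts against 1.

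The gelatinases cut denatured collagen and the type IV collagen of basement membranes. Positions are those of GRCm38. *Mmp2*, on chromosome 8 (92827290 to 92853421), was read 4951 times in the chondrocyte library and 15032 times in the other, or 276 and 817 CPM. Dermal fibroblasts had 2.96 times its chondrocyte level (interval 2.86 to 3.05). *Mmp9* (chromosome 2, 164940326 to 164955850) had 101 and 468 counts, or 5.63 and 25.4 CPM, and exceeded its chondrocyte level 4.51-fold in dermal fibroblasts (interval 3.63 to 5.65). Both gelatinase genes were thus lower in chondrocytes, and *Mmp9* was a low-level transcript in each library.

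*Mmp9* is known from osteoclasts, neutrophils, macrophages and keratinocytes, so the markers of these cells are given beside it. Of the osteoclast list, *Calcr* was at 0 in both libraries, *Oscar* had 2 and 1 counts, *Dcstamp* 0 and 9, *Ocstamp* 0 and 4, and *Acp5* 59 and 61. *Ctsk*, a cathepsin that fibroblasts can also express, had 750 and 6644 counts. The 6 neutrophil markers in the table summed to 110 and 19 counts, with *Ngp* at 27 and 0, and 5 of them were over 2-fold higher in chondrocytes. The 6 macrophage markers summed to 107 and 169 CPM, and 1 of them, *Csf1r*, was over 2-fold higher in dermal fibroblasts. The 7 keratinocyte markers summed to 9.15 and 249 CPM, with 5 of them over 2-fold higher in dermal fibroblasts. The 5 endothelial markers summed to 13.3 and 42.5 CPM. The shares of all genes with a count above 0 that passed 2-fold were 10.7% in favour of chondrocytes and 13.9% in favour of dermal fibroblasts. The part of these cells in the *Mmp9* difference was not tested.

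Of the stromelysins, stromelysin-1 (*Mmp3*) has a broad range of substrates, and stromelysin-3 (*Mmp11*) is activated inside the cell by furin-like convertases. *Mmp11* (chromosome 10, 75923221 to 75932502) was read 230 and 6932 times, or 12.8 and 377 CPM. The 29.3-fold difference (interval 25.7 to 33.6) was the largest among the 9 genes with at least 100 counts in 1 library. *Mmp3* (stromelysin-1, chromosome 9, 7445822 to 7455975) had 66 and 1217 counts, or 3.68 and 66.1 CPM, and exceeded its chondrocyte level 18.0-fold in dermal fibroblasts (interval 14.01 to 23.4). In chondrocytes these genes were close to the low end of the MMP levels, while in dermal fibroblasts *Mmp11* stood below *Mmp14* and *Mmp2* alone among the 6 MMP genes per kilobase.

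*Mmp14* encodes MT1-MMP, a collagenase anchored in the cell membrane that also activates pro-MMP-2. It lies on chromosome 14 (54431598 to 54442456). Its counts were 4317 and 28140, or 241 and 1529 CPM, and exceeded its chondrocyte level 6.35-fold in dermal fibroblasts (interval 6.15 to 6.55). It was the most abundant MMP gene of the dermal fibroblast library.

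*Mmp13* encodes collagenase-3, which cuts fibrillar collagens, type II collagen included. It lies on chromosome 9 (7272514 to 7283333). Its counts were 2276 and 296, or 127 and 16.1 CPM. It was 7.90-fold higher in chondrocytes (interval 6.99 to 8.94) and was the single MMP gene of the 6 with this direction. Among the 7 markers listed for hypertrophic chondrocytes, which did not include *Mmp13*, 5 were over 2-fold higher in chondrocytes and none was over 2-fold lower. Of all genes with a count above 0, 10.7% were over 2-fold higher in chondrocytes and 13.9% in dermal fibroblasts. *Col10a1*, the collagen of the hypertrophic zone, had 10378 and 3 counts, *Ibsp* 349 and 1, *Spp1* 9639 and 3413, *Alpl* 734 and 173, and *Ihh* 41 and 3. *Pth1r*, the receptor of parathyroid hormone-related protein, had 1439 and 1581 counts, a fold of 0.935 (interval 0.870 to 1.005). *Runx2*, a transcription factor known to activate *Mmp13*, had 1051 and 778 counts and was 1.39-fold higher in chondrocytes (interval 1.26 to 1.52). Of the 5 osteoblast markers, 4 were over 2-fold higher in chondrocytes, all at low level. *Sp7* had 156 and 13 counts, *Dmp1* 48 and 1, *Phex* 23 and 1, and *Bglap* 6 and 0. Of the 5, *Sp7* alone had at least 100 counts in 1 library, and the *Bglap* fold of 2.05 depends on the floor of 3 counts. A bulk library does not show which cells gave the *Mmp13* reads. Whether hypertrophic chondrocytes, osteoblasts or other cells gave them was not tested.

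*Mmp13* and *Mmp3* lie in 1 cluster of 10 MMP genes on chromosome 9, which spans 427 kb (7272514 to 7699585). Their start sites are 173308 bp apart. The ratio of *Mmp13* to *Mmp3* reads was 34.5 in chondrocytes and 0.243 in dermal fibroblasts, a difference of 142-fold (counting interval 108 to 187) that does not depend on the scaling between libraries. The 250 bases upstream of each RefSeq start (GRCm38.p6, plus strand) are shown because these cluster members differed in opposite directions. Capitals mark the AP-1 word (TGACTCA or TGAGTCA) and the TATA word (TATAAA).

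*Mmp13* (chr9:7272264-7272513): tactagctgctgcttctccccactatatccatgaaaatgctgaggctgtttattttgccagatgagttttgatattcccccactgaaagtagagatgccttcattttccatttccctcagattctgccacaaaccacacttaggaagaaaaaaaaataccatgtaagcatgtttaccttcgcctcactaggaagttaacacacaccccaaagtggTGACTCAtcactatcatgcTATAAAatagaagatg

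*Mmp3* (chr9:7445572-7445821): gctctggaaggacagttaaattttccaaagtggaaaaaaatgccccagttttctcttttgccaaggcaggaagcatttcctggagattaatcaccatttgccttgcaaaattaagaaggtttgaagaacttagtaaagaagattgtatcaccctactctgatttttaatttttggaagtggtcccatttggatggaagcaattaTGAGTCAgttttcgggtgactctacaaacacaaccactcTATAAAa

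Counted back from the start site, the AP-1 word begins at -35 in *Mmp13* and at -46 in *Mmp3*, and the TATA word at -16 and -7. Each promoter also holds the ETS word AGGAAG (at -109 and -62 in *Mmp13* and at -183 in *Mmp3*). *Mmp13* holds the RUNX word ACCACA, which begins at -118. The RUNX word is not particular to *Mmp13*, as *Mmp14*, which was lower in chondrocytes, holds it at -114. The ETS word is also found, on either strand, in *Mmp14*, *Timp1*, *Timp3* and *Timp4*. The words searched were those named here on both strands, TGTGGT being the other strand of the RUNX word, and the SOX word AACAAT. Among 32851 RefSeq promoter windows of this length, 4.46% held the AP-1 word, 12.4% the TATA word, 29.5% the ETS word, 14.05% the RUNX word and 9.42% the SOX word. Promoter windows were matched for 8 of the 10 members, all except *Mmp2* and *Mmp9*, and of these 8 *Mmp3* and *Mmp13* held the AP-1 word. They also held 1 CpG each, whereas *Mmp11* held 14, *Mmp14* 10, *Timp1* 6, *Timp2* 21, *Timp3* 18 and *Timp4* 2, with a median of 6 over all windows. The AP-1 word was found in 7 of the 10 genes of the chromosome 9 cluster, among them *Mmp1a*, which had 0 counts in both libraries. This count is by gene, and the 4.46% is a share of windows. *Mmp12* and *Mmp7* had 2 windows each and were counted if either held the word. A match of letters is a description and does not show binding.

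**Figure D2:**
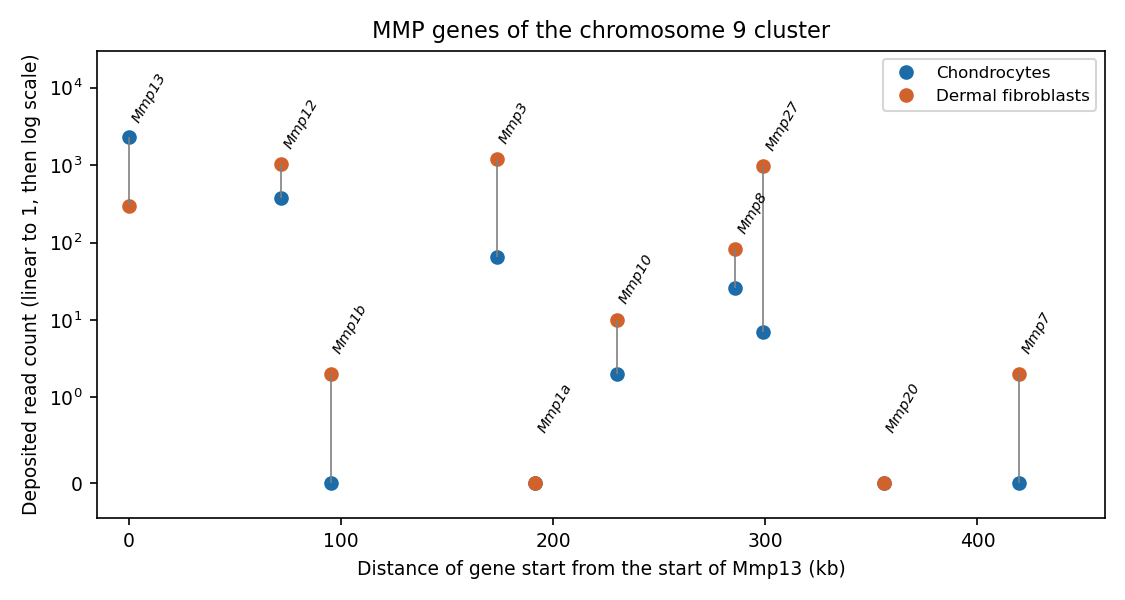
Deposited read counts of the 10 MMP genes of the chromosome 9 cluster against the distance of their starts from that of *Mmp13*, in chondrocytes (blue) and dermal fibroblasts (orange), on an axis that is linear to 1 and log above, with points at 0 drawn on top of each other. *Mmp13* is the gene of the cluster with more counts in chondrocytes (2276 against 296), whereas *Mmp12*, *Mmp3*, *Mmp10*, *Mmp8* and *Mmp27* have more in dermal fibroblasts.

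The neighbours of *Mmp13* and *Mmp3* with at least 10 counts in 1 library were all higher in dermal fibroblasts. *Mmp27* had 7 and 986 counts and was 137-fold higher in the latter (interval 66.3 to 342). *Mmp12*, the macrophage elastase, had 379 and 1035 counts (2.66-fold higher in dermal fibroblasts, interval 2.36 to 2.999). *Mmp8*, the neutrophil collagenase, had 26 and 82 counts. *Mmp10* had 2 and 10 counts, *Mmp1b* and *Mmp7* had 0 and 2 each, and *Mmp1a* and *Mmp20* had none.

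Among the inhibitors, *Timp3* and *Timp4* were higher in chondrocytes, whereas *Timp1* and *Timp2* lay within 2-fold. TIMP-3 stays bound to the extracellular matrix and inhibits, besides MMPs, several ADAM and ADAMTS proteinases. *Timp3* (chromosome 10, 86300412 to 86349505) was read 38352 and 8841 times, or 2140 and 480.2 CPM, and was 4.46-fold higher in chondrocytes (interval 4.35 to 4.56). Among the 10 genes it had the highest CPM in chondrocytes, but per kilobase *Timp1* stood above it there (341 against 263). *Mmp14* was highest in dermal fibroblasts by both measures. *Timp1* (chromosome X, 20870166 to 20874737), a secreted inhibitor that also binds pro-MMP-9, had 5429 and 3274 counts, or 303 and 178 CPM. Its fold was 1.70 in favour of chondrocytes (interval 1.63 to 1.78). *Timp2* (chromosome 11, 118301061 to 118355411), which bridges MT1-MMP and pro-MMP-2 during activation, had 10228 and 12585 counts, or 571 and 684 CPM. The dermal fibroblast level was 1.20 times that of chondrocytes (interval 1.17 to 1.23). For these genes the differences were larger than the counting error and smaller than 2-fold. The folds of the 5 housekeeping genes ran from 0.853 to 1.86, beside 1.70 for *Timp1* and 0.835 for *Timp2*.

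*Timp4* (chromosome 6, 115244444 to 115252205) was close to absent from the reads. Its counts were 14 and 1, or 0.781 and 0.0543 CPM. The ratio was 14.4 with a counting interval from 2.19 to 608.0, and 4.79 when the count of 1 was set to 3. With a floor of 10 counts it was 1.44 and no longer over 2-fold. The size of this difference was therefore not resolved at this depth.

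The annotated spans of *Timp1*, *Timp3* and *Timp4* each lie wholly inside that of a synapsin gene, *Syn1*, *Syn3* and *Syn2*. *Timp1* and *Syn1* lie on opposite strands, as do *Timp4* and *Syn2*, and the strand of *Syn3* was not given in the reference used. The libraries were stranded, but the sources do not state whether reads were counted by strand. The host genes had 52 and 40 counts (*Syn1*), 44 and 29 (*Syn3*) and 20 and 22 (*Syn2*), all within 2-fold. The host reads were thus few beside the counts of *Timp1* and *Timp3*. For *Timp4*, the 14 and 1 counts are fewer than those of its host in each library. *Timp2* overlaps *Cep295nl*, which was not found in the table by symbol.

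**Figure D3:**
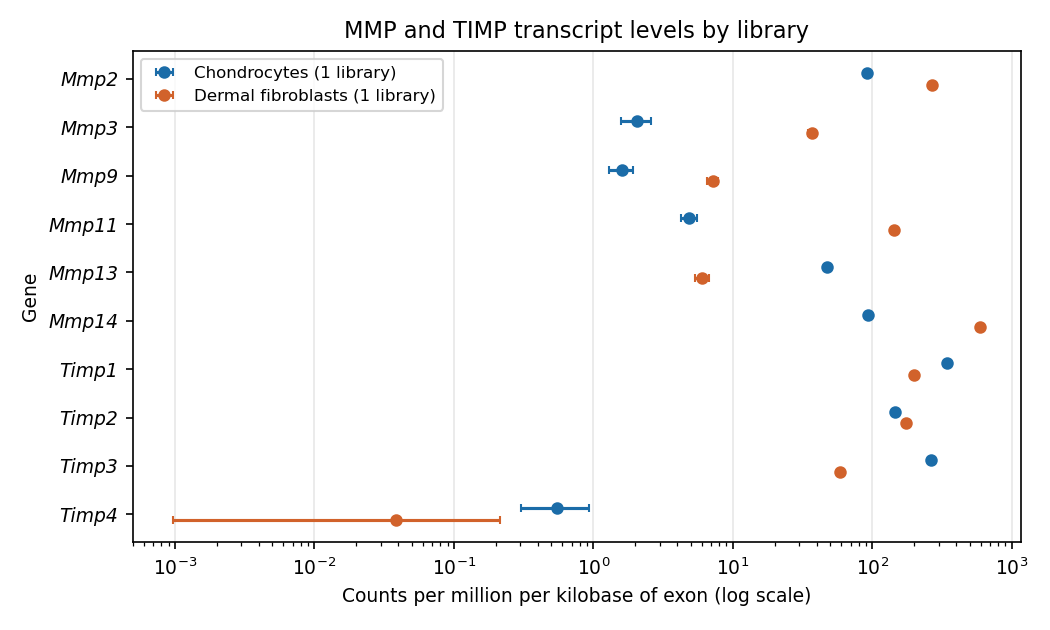
Level of each gene in CPM per kilobase of exon on a log axis in the chondrocyte library (blue) and the dermal fibroblast library (orange), with 95% Poisson intervals of the count. *Timp1* and *Timp3* are highest in chondrocytes (341 and 263), and *Mmp14* and *Mmp2* are highest in dermal fibroblasts (589 and 269).

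Per kilobase of exon, the order of the 10 genes differed between the libraries. In chondrocytes the 3 highest were TIMP genes, *Timp1* at 341, *Timp3* at 263 and *Timp2* at 146 CPM per kilobase. *Mmp14* at 92.7 and *Mmp2* at 90.9 followed, with overlapping counting intervals (90.0 to 95.5 and 88.4 to 93.5), and then *Mmp13* at 47.5. *Mmp11* (4.85), *Mmp3* (2.05), *Mmp9* (1.59) and *Timp4* (0.552) were lower, and the intervals of *Mmp3* and *Mmp9* overlapped. In dermal fibroblasts *Mmp14* at 589 and *Mmp2* at 269 CPM per kilobase stood above *Timp1* at 200.3, *Timp2* at 175 and *Mmp11* at 142. *Timp3* (59.0), *Mmp3* (36.8), *Mmp9* (7.18), *Mmp13* (6.01) and *Timp4* (0.0384) completed the order, and the intervals of *Mmp9* and *Mmp13* overlapped. Exon lengths covered all annotated exons of a gene, from 0.888 kb for *Timp1* to 8.14 kb for *Timp3*, so a gene read from a shorter transcript is understated.

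**Figure D4:**
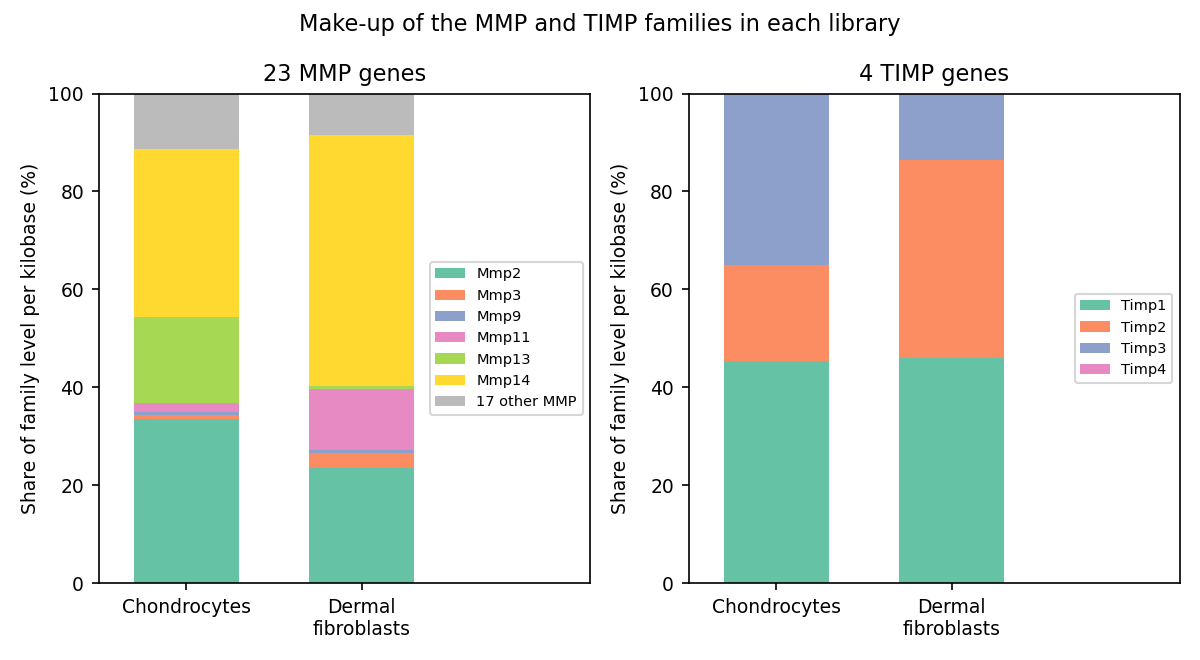
Share of each gene in the summed level per kilobase of the 23 MMP genes in the table (left) and of the 4 TIMP genes (right), in each library, with the 17 other MMP genes as 1 grey bar part. *Mmp13* makes up 17.5% of the MMP level in chondrocytes and 0.525% in dermal fibroblasts, and *Timp3* makes up 35.0% and 13.6% of the TIMP level.

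The make-up of each family followed these levels. Of the summed level per kilobase of all 23 MMP genes in the table, *Mmp14* made up 34.3% in chondrocytes and 51.4% in dermal fibroblasts, and *Mmp2* made up 33.6% and 23.5%. *Mmp13* accounted for 17.5% and 0.525%, *Mmp11* for 1.79% and 12.4%, and *Mmp3* for 0.757% and 3.21%. Among the TIMP genes *Timp1* held 45.4% and 46.1%, *Timp2* 19.5% and 40.4%, and *Timp3* 35.0% and 13.6%.

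As a share of all counts, the 6 MMP genes took 0.0636% in chondrocytes (Wilson interval 0.0624 to 0.0647) and 0.297% in dermal fibroblasts (0.294 to 0.299). The 4 TIMP genes took 0.288% (0.285 to 0.290) and 0.141% (0.139 to 0.142). TIMP reads were thus 4.52 times the MMP reads in chondrocytes and 0.474 times the MMP reads in dermal fibroblasts, a 9.54-fold difference (counting interval 9.30 to 9.78). This ratio is taken within each library and needs no scaling. It was 4.31-fold without *Timp3* and 6.87-fold without *Mmp14*, and it was 7.57-fold when reads were divided by exon length.

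Known partners were compared in the same way. TIMP-2, MT1-MMP and pro-MMP-2 form a complex on the cell surface, in which the amount of TIMP-2 relative to MT1-MMP sets whether pro-MMP-2 is activated or blocked. There were 2.37 *Timp2* reads for each *Mmp14* read in chondrocytes and 0.447 of a read in dermal fibroblasts, a 5.30-fold difference (interval 5.08 to 5.52). For each *Mmp2* read there were 2.07 and 0.837 *Timp2* reads, a 2.47-fold difference (interval 2.37 to 2.57). *Timp3* reads were 8.88 times and 0.314 times the *Mmp14* reads, a 28.3-fold difference (interval 27.2 to 29.4). *Timp1* reads outnumbered *Mmp9* reads 53.8 to 1 and 6.996 to 1, a 7.68-fold difference (interval 6.17 to 9.57). *Timp3* reads outnumbered *Mmp13* reads in each library, 16.9 to 1 and 29.9 to 1, and this ratio was lower in chondrocytes (1.77-fold, interval 1.57 to 2.01). Of the 5 TIMP to MMP pairs compared, it was the 1 with this direction. These are ratios of reads not divided by exon length, so within a library they weigh the longer gene more and are not ratios of transcripts. Exon length cancels in the fold between the libraries. Neither protein nor activity was measured.

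The 17 other MMP genes followed the direction of the 5 lower members in part. Of these, 8 had at least 100 counts in 1 library. Of the 8, 5 were over 2-fold higher in dermal fibroblasts, 1 was over 2-fold higher in chondrocytes and 2 lay within 2-fold. Among all 11162 genes at that depth, 13.3% were over 2-fold higher in dermal fibroblasts and 8.79% in chondrocytes. The gene higher in chondrocytes was *Mmp16*, encoding the membrane-anchored MT3-MMP, with 929 and 107 counts (8.92-fold, interval 7.29 to 10.998). *Mmp17* (MT4-MMP) had 51 and 392 counts (7.48-fold, 5.58 to 10.2), and *Mmp15* (MT2-MMP) had 290 and 308 counts. Of the other membrane-type genes, *Mmp24* had 1 and 0 counts and *Mmp25* 4 and 6. *Mmp19* (431 and 1539 counts) and *Mmp23* (310 and 1010) were 3.48-fold and 3.17-fold higher in dermal fibroblasts, and *Mmp28* had 149 and 223 counts. The genes *Mmp1a*, *Mmp20* and *Mmp21*, had no counts.

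Of the 7 activators of the system, 1 was over 2-fold higher in chondrocytes and 2 in dermal fibroblasts, beside 10.7% and 13.9% of all genes with a count above 0, and so few genes do not set the activators apart as a group. The proprotein convertases cut the propeptide of furin-activated MMPs such as MMP-11 and MMP-14. *Pcsk6* had 7046 and 296 counts and was 24.4-fold higher in chondrocytes (interval 21.8 to 27.6), *Pcsk5* had 300 and 948 counts and was 3.08-fold higher in dermal fibroblasts, and *Furin* itself had 3132 and 3282 counts. In the plasminogen branch, *Plat* (tissue plasminogen activator) was 8.10-fold higher in dermal fibroblasts with 182 and 1514 counts. *Plau* (urokinase, 912 and 1519 counts) and its receptor *Plaur* (892 and 539) lay within 2-fold, and *Plg* had 1 and 2 counts.

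Of the 9 other inhibitors and clearance receptors, 2 were over 2-fold higher in chondrocytes and 4 in dermal fibroblasts. The shares of all genes with a count above 0 were 10.7% and 13.9%. *A2m*, encoding the broad proteinase inhibitor alpha-2-macroglobulin, had 2065 and 7 counts, a 303-fold difference (interval 147 to 755). *Serpine2* (protease nexin-1) had 11680 and 3052 counts and was 3.93-fold higher in chondrocytes. The membrane-anchored MMP inhibitor *Reck* had 1714 and 952 counts, a 1.85-fold difference (interval 1.71 to 2.004). *Tfpi2* (32 and 369 counts) and *Spock1* (7 and 136) were 11.2-fold and 18.9-fold higher in dermal fibroblasts. *Lrp1*, which takes up MMPs and TIMPs from the cell surface, had 19284 and 41391 counts and was 2.09-fold higher in dermal fibroblasts, close to the threshold, and *Spock3* rested on 1 and 7 counts. *Mrc2*, a collagen uptake receptor, had 7732 and 7113 counts. With *Actb* scaling *Lrp1* lay within 2-fold and *Reck* passed it.

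The ADAM proteinases shed proteins from the cell surface, and some of them are targets of TIMP-3. Of the 8 genes listed, 5 were over 2-fold higher in dermal fibroblasts and none was over 2-fold higher in chondrocytes. All 8 had at least 100 counts in 1 library. Among the 11162 genes at that depth, 13.3% were over 2-fold higher in dermal fibroblasts and 8.79% in chondrocytes. *Adam33* (100 and 2749 counts) was 26.8-fold and *Adam12* (1691 and 6129 counts) 3.53-fold higher in dermal fibroblasts. *Adam9*, *Adam19* and *Adam15* were 2.47-fold, 2.52-fold and 2.26-fold higher there. *Adam17*, the TNF-converting enzyme known to be inhibited by TIMP-3, had 1896 and 1733 counts, *Adam10* 1490 and 2970, and *Adam8* 639 and 537, all within 2-fold. *Adam10* was 1.94-fold higher in dermal fibroblasts, and with scaling by total counts it passed 2-fold, which made 6 of 8.

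**Figure D5:**
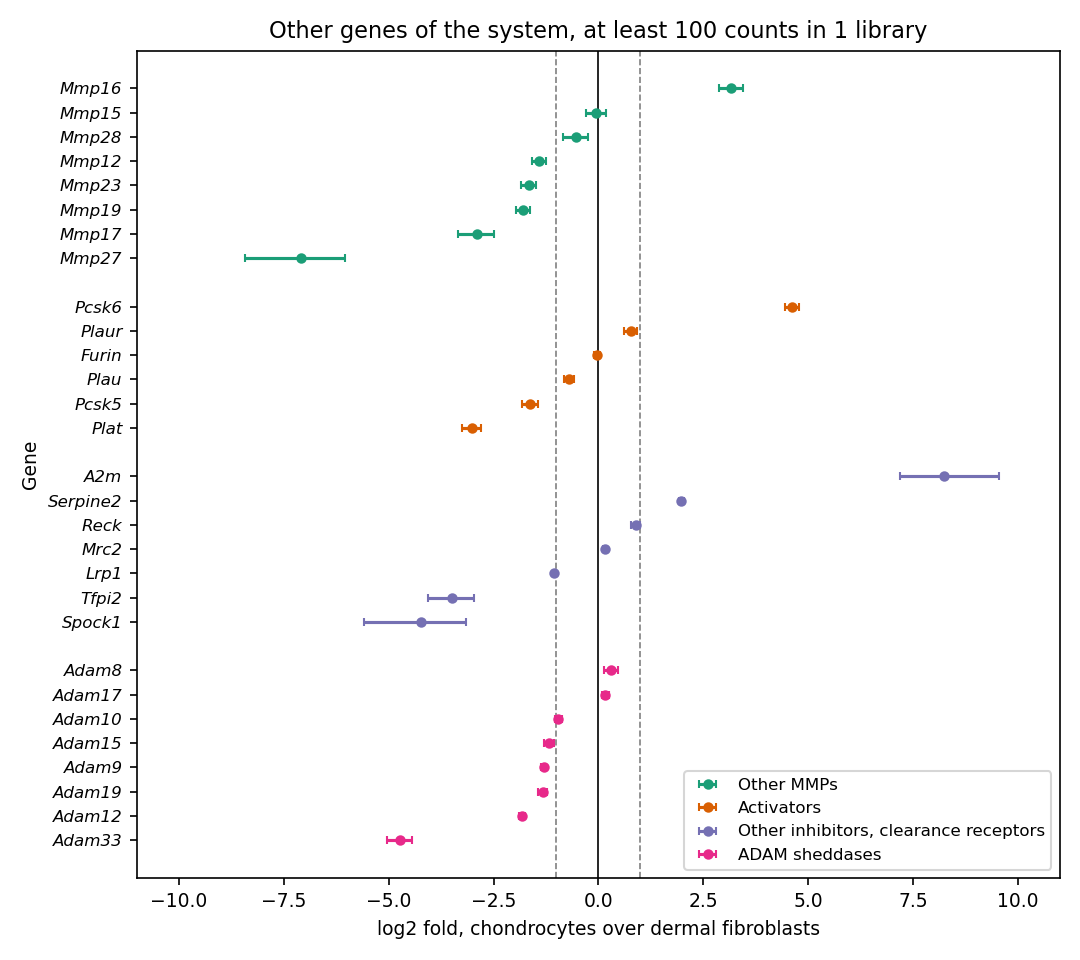
log2 fold in chondrocytes over dermal fibroblasts of the other genes of the system with at least 100 counts in 1 library, with 95% counting intervals and dashed lines at 2-fold. *A2m*, *Pcsk6* and *Mmp16* stand on the chondrocyte side, and *Mmp27*, *Adam33* and *Spock1* stand on the dermal fibroblast side.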

How the data were processed

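Single-end 75 bp reads came from stranded mRNA libraries. Per the labels and methods, the authors called bases with CASAVA 1.8.2, mapped reads to mm10 (GRCm38) with TopHat2 2.0.13, Bowtie2 2.2.3 and SAMtools 0.1.19, and deposited a table of raw read counts, 1 row per gene symbol. The counting program, annotation and strand setting are not given in the sources used here. Of 24421 rows, 6703 were 0 in both libraries, and 27 held a date in place of a symbol. These 27 stayed in the totals.

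TMM factors (edgeR 4.0.16, R 4.3.3) scaled the libraries of 18788599 and 17563724 counts. Folds and intervals were computed with pandas 2.3.3, scipy 1.17.1 and numpy 2.4.6 under Python 3.11.15, and the calculations were tested on simulated data. Counts under 3 were set to 3 and the threshold was 2-fold. Intervals of ratios between genes are log-normal. No p-value was computed, since neither cell type had replicates. The intervals treat reads as independent molecules, which PCR copies without molecular identifiers are not, and so describe counting error alone. Exon lengths came from GENCODE vM1, positions and promoter sequences from RefSeq (GRCm38.p6). The alternatives were other scalings (total counts, with and without the 10 most abundant genes, DESeq2 1.42.0 size factors, upper quartile, *Actb*), floors of 1 and 10, a pseudocount of 1, a minimum of 10 counts, a 4-fold threshold and intervals wholly beyond 2-fold.

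The members and gene lists were chosen with earlier results of these data known. All members are named. Of each list, genes were named if among the 3 most abundant, or over 2-fold different with at least 100 counts, or a neighbour of a member. 1 gene of the planned lists was left out of all results and is not reported here. Low-count genes of the lists that are not named are in the counts. Marker lists are given mainly by sums and counts. Other named genes, among them low-count list genes, were chosen after their values were seen.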

Additional observations from a re-analysis of the deposited data

How the results depend on the processing

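No paired analysis was possible because there was 1 library of each kind. With 1 choice changed at a time, no fold of the 10 genes changed direction in 80 values under 8 alternatives, which could be foreseen, since a scaling shifts all genes alike and the floors touch *Timp4* alone. Of the 80 values, 13 fell beyond the reported fold's counting interval. Relative to TMM, total counts moved all log2 folds by -0.14 and *Actb* by 0.12. Under the alternatives *Mmp13* was 7.19-fold to 8.60-fold and *Timp3* 4.06-fold to 4.85-fold higher in chondrocytes, and *Mmp14* was 5.83-fold to 6.97-fold higher in dermal fibroblasts. The 5 genes over 2-fold higher in dermal fibroblasts stayed at 5 under each scaling, floor and filter and were 4 with a 4-fold threshold. The 3 genes higher in chondrocytes were 2 with a floor of 10 counts, which set *Timp4* to 1.44, and 3 otherwise. The 9.54-fold difference in the ratio of TIMP to MMP reads was 8.70 with all 23 MMP genes, 4.31 without *Timp3*, 6.87 without *Mmp14* and 7.57 per kilobase. Each of these alternatives changes the genes or the weights in the sum. Of 64 counts over the other gene lists, 1 moved by more than 1.5 times, the other MMP genes higher in chondrocytes, which went from 1 to 2 with a pseudocount of 1. Depth limited *Timp4*, with 14 and 1 counts, and *Mmp3* and *Mmp9* in chondrocytes, with 66 and 101.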
